A study of Mus musculus with 16 samples.

Results

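Keratin-associated protein genes, whose mouse symbols begin with Krtap, were taken from the count table by symbol, and every such gene with at least 1 count in any of 16 libraries was kept. Of 49585 genes in the table, 57 were Krtap genes, and 56 of them had a count; Krtap12-1 had 0 counts throughout. The lowest totals kept were 15 counts for Krtap13 and 99 for Krtap9-5, and only these 2 of the 56 failed the low-count filter, which left 54 to test. Of the 56, 17 lie in a stretch of chromosome 16 that runs from Krtap14 to Krtap6-2 (GRCm38, 88818667 to 89420111, 601.4 kb), 8 lie on chromosome 16 outside it, and 31 lie elsewhere: 23 on chromosome 11, 5 on chromosome 7, 2 on chromosome 1 and 1 on chromosome 10. The ends of the stretch were set with the knockout results of these libraries already known. Its knockout values are therefore a description of how it was chosen and support nothing further, whereas the sequences and the coding composition played no part in the choice. The response to ultraviolet B (UVB) was not used in it either, but is read from the same libraries.

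RNA sequencing was done on epidermis, separated from the dermis by heat shock, of SKH-1 mice 8 to 12 weeks old. Controls were labelled K5Cre, and the compared mice lacked C/EBPβ in the epidermis; K5Cre denotes Cre recombinase driven by the keratin 5 promoter, which is active in basal keratinocytes and in follicle epithelium. The 4 groups were control unexposed, knockout unexposed, control 6 h after 100 mJ/cm2 of UVB and knockout 6 h after the same dose, with 4 libraries in each. The labels do not say that the libraries of a group came from separate mice, so the p-values reflect the spread among these libraries, which may be technical. SKH-1 mice carry a defect of the Hairless gene and shed their coat early in life, so the follicles they keep are abnormal.

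Keratin-associated proteins are made late in the differentiation of the hair shaft, where they fill the matrix between the keratin filaments and crosslink them. The family is grouped by composition into high-sulfur and ultrahigh-sulfur proteins, rich in cysteine, and high glycine-tyrosine proteins, and members of a kind sit in tandem in the genome. C/EBPβ, the product of Cebpb, binds DNA through a basic leucine zipper domain and acts in keratinocyte differentiation.

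Most genes of the stretch encode proteins of the glycine-tyrosine kind. In the 16 stretch members with an annotated coding sequence (all but Krtap19-9a), glycine and tyrosine codons made up a median of 63.1% of the coding sequence (range 17.4% to 69.2%) and cysteine codons a median of 8.09%. The lowest glycine and tyrosine shares were those of the first members, Krtap14 with 17.4% and Krtap15 with 24.0%. In the 31 Krtap genes on other chromosomes the medians were 4.79% glycine and tyrosine and 34.6% cysteine. Krtap8-1 and Krtap7-1, which lie on chromosome 16 just beyond Krtap6-2, held 47.5% and 29.9% glycine and tyrosine. These are counts of codons, and each gene counts once whatever its level.

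The sequences upstream of the genes are shown because the form of the TATA sequence differed along the stretch. Each run is the 120 bases before the RefSeq start of the gene (GRCm38.p6), 5′ to 3′ on the strand of the gene, with matches to TATAAA, TATATAAG, TTGCNNAA (a C/EBP type motif) and ATCAAAG (a LEF1 and TCF type motif) in capitals.

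Krtap14: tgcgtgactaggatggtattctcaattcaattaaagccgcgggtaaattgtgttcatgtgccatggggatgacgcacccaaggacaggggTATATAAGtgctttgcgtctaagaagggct
Krtap19-2: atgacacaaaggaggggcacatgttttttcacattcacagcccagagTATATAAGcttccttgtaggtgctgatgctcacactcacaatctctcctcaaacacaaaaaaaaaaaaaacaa
Krtap19-4: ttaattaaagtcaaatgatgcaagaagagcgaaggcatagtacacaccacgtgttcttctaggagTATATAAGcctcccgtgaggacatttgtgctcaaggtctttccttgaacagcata
Krtap22-2: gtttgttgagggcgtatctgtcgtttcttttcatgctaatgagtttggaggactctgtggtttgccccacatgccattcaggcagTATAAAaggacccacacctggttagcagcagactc
Krtap6-5: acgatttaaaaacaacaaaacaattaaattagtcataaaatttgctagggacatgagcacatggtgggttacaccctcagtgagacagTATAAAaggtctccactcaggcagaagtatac
1110025L11Rik: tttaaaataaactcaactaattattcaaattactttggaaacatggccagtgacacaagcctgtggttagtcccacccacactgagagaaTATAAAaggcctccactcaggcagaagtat
Krtap8-1: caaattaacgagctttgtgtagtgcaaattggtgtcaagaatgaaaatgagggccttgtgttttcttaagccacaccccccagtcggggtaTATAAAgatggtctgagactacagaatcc

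The runs lie at chr16:88826146-88826265, chr16:88874270-88874389, chr16:88885090-88885209, chr16:89010760-89010879, chr16:89047900-89048019, chr16:89064003-89064122 and chr16:89487953-89488072, all on the minus strand. Motifs were counted on both strands in windows of 250 bases before to 50 after the start, for the 16 stretch members and 27025 genes in all that had such a window. TATATAAG, a motif chosen after the sequences were seen, was present in 6 of 16 stretch members, against 1.07% of all windows. Those 6 were Krtap14, Krtap15, Krtap19-1, Krtap19-2, Krtap19-3 and Krtap19-4, the first 6 genes by position. The other 10 held TATAAA, which was in 14.2% of all windows and in 6 of 7 chromosome 16 Krtap genes outside the stretch. It was also in 26 of 28 on other chromosomes and in all 8 genes, not named Krtap, that lie between the stretch members. These counts take a match anywhere in the window. On the strand of the gene, 40 to 20 bases before the start, TATAAA was in 6 of 16 stretch members. It was there in 4 of 7, 21 of 28 and 3 of 8 of the other genes, and in 2.22% of all windows. TATATAAG, anywhere in the window, was in 0 of 7, 1 of 28 and 0 of 8 of the other genes. TTGCNNAA was in 3 of 16 stretch members, 2 of 7, 5 of 28, 0 of 8 genes between and 10.8% of all windows. ATCAAAG was in 1 of 16 stretch members, 0 of 7, 3 of 28, 0 of 8 genes between and 3.72% of all windows. A match describes the letters of the window and does not show that a factor binds there.

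The 16 libraries held 33.0 to 53.3 M counts, of which Krtap genes took 0.0141% to 0.399%. Levels are given as CPM, the counts of a gene relative to its library's total after TMM scaling. Cebpb read 155 to 320 CPM in the 8 control libraries and 0.177 to 3.04 CPM in the 8 knockout libraries. Markers of epidermal keratinocytes such as Krt10, Lor and Flg summed to 39070 to 78190 CPM per library. The summed level of all Krtap genes varied within every group: 957 to 3111 CPM in unexposed controls, 251 to 994 CPM in unexposed knockouts, 1085 to 4394 CPM in exposed controls and 145 to 1609 CPM in exposed knockouts. In bulk epidermis, fewer cells of a type and less RNA per cell cannot be told apart.

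The stretch made up a smaller share of all Krtap transcripts in every knockout library than in any control library. It held 30.2%, 31.5%, 26.8% and 29.8% of the summed Krtap CPM in the 4 unexposed control libraries (mean 29.6% ± 1.98, SD, n = 4) and 9.57%, 10.6%, 7.69% and 10.98% in the 4 unexposed knockout libraries (9.71% ± 1.47, n = 4). After UVB it held 26.0%, 23.6%, 26.7% and 27.0% in controls (25.8% ± 1.53, n = 4) and 6.42%, 7.01%, 12.1% and 7.99% in knockouts (8.38% ± 2.57, n = 4). The total that the share refers to ranged far more widely within each group than the share did. No p is given for the share because its members were chosen with the result known. Restricted to 22 members with under 5% of their 50-base stretches shared with another gene, 9 of them in the stretch, the share was 28.3% to 31.9% and 12.6% to 15.4% unexposed, and 22.6% to 27.0% and 8.70% to 15.8% after UVB, in controls and knockouts.

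**Figure D1:**
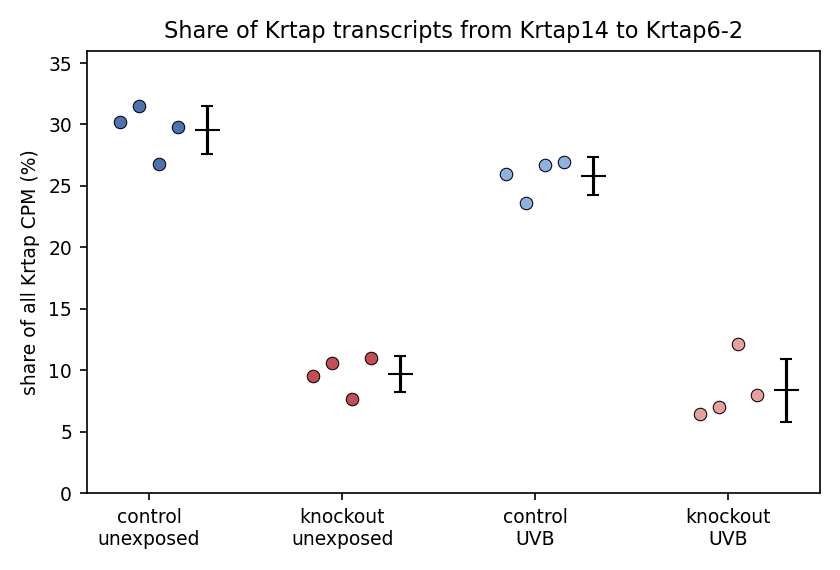
Share of the summed Krtap CPM (%) held by the 17 stretch genes, 1 point per library in the 4 groups; the bars to the right are the mean ± SD (n = 4). The control libraries lie between 23.6% and 31.5% and the knockout libraries between 6.42% and 12.1%.

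In absolute terms the stretch summed to 609, 301, 273 and 927 CPM in unexposed controls against 24.0, 61.1, 24.0 and 109 CPM in unexposed knockouts. The 39 Krtap genes outside it summed to 1411, 656, 744 and 2184 CPM against 227, 515, 288 and 885 CPM. The groups were apart for the stretch and overlapped for the other clusters. After UVB the stretch gave 873, 256, 1173 and 341 CPM in controls and 102, 113, 94.6 and 11.6 CPM in knockouts. The other clusters gave 2492, 829, 3221 and 922 CPM and 1485, 1497, 686 and 133 CPM, again with overlap. Knockout library 4 after UVB was the lowest of the 16 for both sums, yet its share of 7.99% lay within the range of its group.

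**Figure D2:**
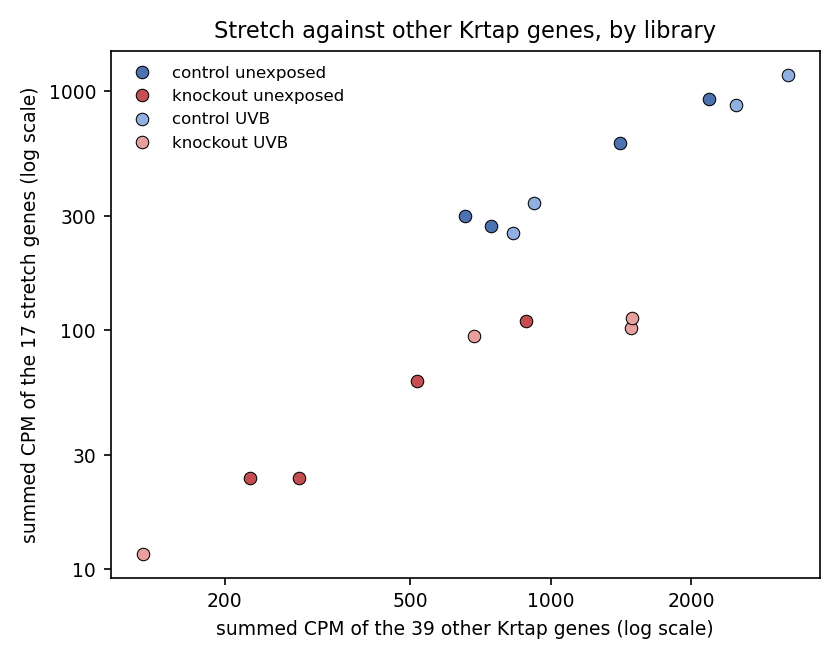
Summed CPM of the 17 stretch genes (vertical, log scale) against that of the 39 other Krtap genes (horizontal, log scale), 1 point per library. At a given level of the other genes, the 8 knockout libraries lie below the 8 control libraries.

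In unexposed epidermis all 17 stretch members passed the low-count filter, and 9 were lower in the knockout at an adjusted p under 0.05 (edgeR quasi-likelihood test, Benjamini-Hochberg over 17741 genes), 0 were higher and 8 did not pass; 1.14% of all tested genes were lower and 0.964% higher by the same rule. The 9 were Krtap14, Krtap15, Krtap19-1, Krtap19-2, Krtap19-3, Krtap19-4, Krtap19-5, Krtap6-5 and Krtap20-2, and the adjusted p of the other 8 ran from 0.0507 to 0.238. All 17 had every knockout library below every control library, as had 5.36% of all tested genes. The median log2 fold change of the stretch was -3.92, against 0.00 over all tested genes. Outside the stretch 0 of 37 tested Krtap genes passed in edgeR, with a median of -1.29, and 4 of 37 had groups that did not overlap. Of the 37, 10 had an unadjusted p under 0.05, against 12.4% of all tested genes, and 1 passed in DESeq2 and 0 in limma voom. The count of 9 moved with the libraries: it was 2, 3, 3 and 2 without control library 1, 2, 3 or 4 and 2, 2, 3 and 11 without knockout library 1, 2, 3 or 4. It was 16 in DESeq2, 14 in limma voom and 4 with no filter on low counts. All 17 estimates stayed below 0 in each of these fits.

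After UVB 9 of 17 stretch members were lower, 0 higher and 8 did not pass, where 2.32% of all tested genes were lower and 2.36% higher. These were Krtap14, Krtap19-2, Krtap19-4, Krtap6-5 and Krtap20-2, the 5 that passed at both exposures, with Krtap19-9b, Krtap16-3, Krtap6-3 and Krtap6-2. The adjusted p of the other 8 ran from 0.0512 to 0.231, and 4 members, Krtap19-9a, Krtap22-2, Krtap6-1 and Krtap21-1, passed at neither exposure. For 14 the groups did not overlap, against 4.84% of all tested genes, and the median log2 fold change was -3.87, against 0.04 over all tested genes. The 3 with overlap were Krtap19-1, Krtap19-4 and Krtap22-2. Outside the stretch 0 of 37 passed in edgeR (1, Krtap1-5, at an unadjusted p under 0.05, against 20.3% of all tested genes, and 0 in DESeq2 and limma voom), with a median of -0.68 and 0 of 37 without overlap. The count of 9 was 4, 12, 3 and 9 without exposed control library 1, 2, 3 or 4 and 4, 3, 4 and 5 without exposed knockout library 1, 2, 3 or 4. It was 15 in DESeq2 and 5 with no filter on low counts. The comparisons at the 2 exposures set different libraries against each other, but all 16 libraries share 1 fit and its estimate of the spread.

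**Figure D3:**
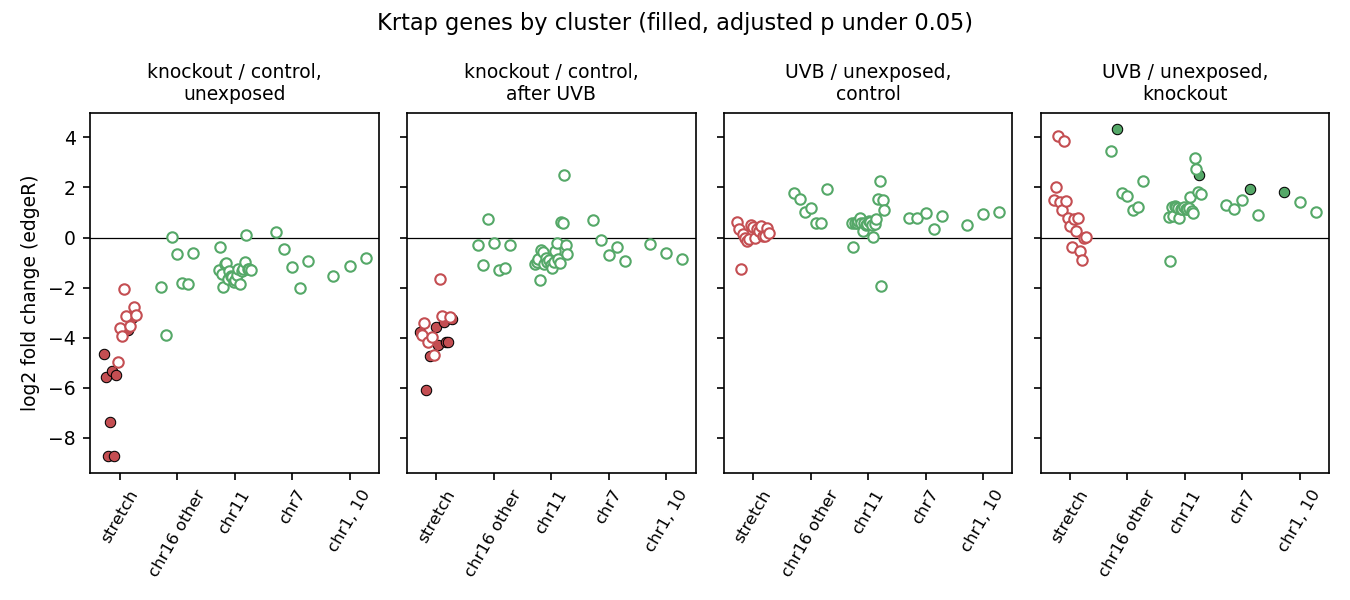
Log2 fold change (edgeR) of the 54 tested Krtap genes by cluster, 1 point per gene in order of position, for the 4 comparisons; filled points have an adjusted p under 0.05. In both knockout comparisons all 17 stretch genes lie at -1.66 or lower, and no gene of another cluster is filled.

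The first genes of the stretch have few close relatives in it. Krtap15 read 87.1, 45.6, 39.4 and 122 CPM in unexposed controls and 0.147, 2.05, 0.603 and 3.75 CPM in unexposed knockouts. After UVB it read 117, 38.1, 172 and 46.6 CPM in controls and 2.48, 6.18, 16.7 and 0.0213 CPM in knockouts. Every knockout library lay below every control library, by a log2 fold change of -5.55 (SE 1.28) unexposed and -3.87 (SE 1.16) after UVB, which did not pass (edgeR adjusted p = 0.0784). Krtap14, its neighbour on the opposite strand, had 41.8 ± 24.7 CPM (n = 4) in unexposed controls and 1.75 ± 1.75 CPM (n = 4) in unexposed knockouts, a 25.0-fold difference, which was 13.5-fold after UVB. The bodies of these 2 genes overlap but their exons do not; an exon of the noncoding gene 4930553J12Rik overlaps 201 bases of Krtap15, and the sources used here do not say if counting took strand into account.

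The Krtap19 genes, which apart from Krtap19-9a have coding sequences rich in glycine and tyrosine, included the largest fitted differences and the lowest counts of the stretch. This did not hold for each of them: unexposed, Krtap19-9b at -3.59 differed less than Krtap15 at -5.55. Krtap19-2 read 10.7, 4.22, 2.52 and 8.85 CPM in unexposed controls and 0, 0.0531, 0 and 0.125 CPM in unexposed knockouts. After UVB it read 8.84, 3.16, 13.5 and 3.23 CPM and 0, 0.151, 0.133 and 0.128 CPM, so both exposures showed a wide gap between the genotypes. Krtap19-1 had 222 counts in the 4 unexposed control libraries and 0 in the knockouts, at least 18.3-fold lower against a floor of 3 counts per library. After UVB its groups overlapped, since control library 3 had 0 counts. Krtap19-4 groups overlapped after UVB too, where control libraries read 1.28, 1.24, 9.19 and 0.278 CPM and knockout libraries 0, 0.0943, 0.343 and 0 CPM. Krtap19-3 and Krtap19-5 were 39.9-fold and 45.1-fold lower unexposed, and their differences of 18.2-fold and 15.6-fold after UVB did not pass (edgeR adjusted p = 0.0512 and 0.0535). The fitted differences of Krtap19-9a, 31.1-fold and 25.6-fold, passed at neither exposure (adjusted p = 0.161 and 0.101). Krtap19-9b, with more transcript, differed by 12.1-fold unexposed, which did not pass (adjusted p = 0.0507), and was 11.9-fold lower after UVB.

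Among the stretch members, Krtap6-1, Krtap6-3 and Krtap6-5 had the highest shares of glycine and tyrosine codons. Krtap6-5 read 58.3, 33.4, 33.8 and 95.7 CPM in unexposed controls and 2.42, 5.18, 1.45 and 8.31 CPM in unexposed knockouts. After UVB it read 111, 28.2, 119 and 49.2 CPM in controls and 9.63, 14.3, 4.72 and 0.981 CPM in knockouts. The groups were apart at both exposures, with log2 fold changes of -3.69 (SE 0.83) and -3.37 (SE 0.81). Krtap6-1 read 60.4, 28.9, 28.4 and 90.8 CPM in unexposed controls and 1.93, 8.10, 2.05 and 12.3 CPM in unexposed knockouts, and Krtap6-2 read 51.3, 23.0, 27.2 and 106 CPM and 2.94, 7.59, 3.22 and 10.7 CPM. After UVB the 2 genes ranged from 21.3 to 97.1 CPM and 19.8 to 95.8 CPM in controls and from 0.512 to 14.2 CPM and 0.811 to 10.01 CPM in knockouts. Neither gene had overlapping groups at either exposure, but Krtap6-1 did not pass (edgeR adjusted p = 0.122 and 0.0723), nor did Krtap6-2 unexposed (adjusted p = 0.078). Counts of Krtap6-1 and Krtap6-5 are less certain than most, because 28.3% and 19.0% of their 50-base stretches recur in another gene, mainly Gm10229 and Gm10228.

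Krtap21-1 read 58.1, 25.3, 25.2 and 106 CPM in unexposed controls and 3.46, 10.5, 3.90 and 14.1 CPM in unexposed knockouts. After UVB it ranged from 24.1 to 131 CPM in controls and from 0.213 to 11.5 CPM in knockouts, still without overlap. Its log2 fold changes of -2.75 (SE 0.96) and -3.15 (SE 0.97) did not pass (edgeR adjusted p = 0.21 and 0.0855). Krtap20-2 was 9.32-fold lower unexposed and 18.2-fold lower after UVB. Krtap16-3 and Krtap6-3 differed by 15.1-fold and 11.6-fold unexposed, which did not pass (adjusted p = 0.0727 and 0.0543), and were 19.5-fold and 17.8-fold lower after UVB.

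Krtap22-2 was the most abundant stretch member per length and the least changed. It had 221 CPM per kb of exon in unexposed controls, where the 17 members ran from 2.36 to 221 with a median of 36.4 CPM per kb. Its libraries read 93.3, 47.8, 41.3 and 140 CPM in unexposed controls and 11.2, 21.2, 9.01 and 36.2 CPM in unexposed knockouts. After UVB they read 135, 43.8, 180 and 48.9 CPM and 52.7, 42.3, 29.6 and 4.69 CPM, where the groups overlapped. Its log2 fold changes of -2.06 (SE 0.75) and -1.66 (SE 0.74) did not pass the threshold (edgeR adjusted p = 0.238 and 0.231). None of its 50-base stretches recurred elsewhere.

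**Figure D4:**
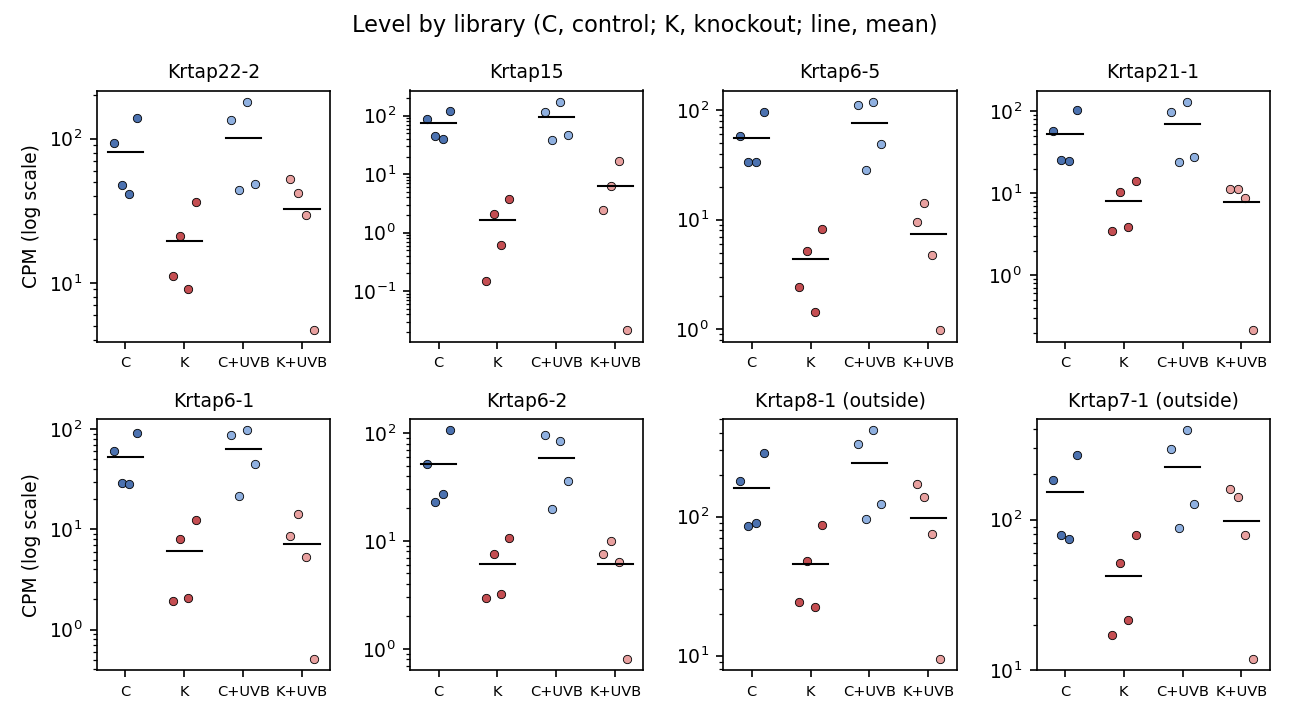
CPM (log scale) in each library for the 6 most abundant stretch members and for Krtap8-1 and Krtap7-1 outside it (C, control; K, knockout; the line is the mean of 4 libraries). The unexposed groups are apart for the 6 stretch members and overlap for Krtap8-1 and Krtap7-1.

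The size of the difference varied with position inside the stretch. Unexposed, the 8 genes from Krtap14 to Krtap19-9a had log2 fold changes of -4.64 and beyond, with a median of -5.52, whereas the 9 genes from Krtap19-9b to Krtap6-2 lay between -3.92 and -2.06 with a median of -3.22. After UVB the medians were -4.08 and -3.37, and the ranges, -6.08 to -3.42 and -4.28 to -1.66, overlapped. The point of division was chosen after the values were seen, so it is given without a test. The largest unexposed values rest on low counts in the knockout: without Krtap19-1 and Krtap19-4, which had 0 and 1 count there, the other 15 members ranged from -7.36 to -2.06.

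The nearest tested Krtap genes beyond either end had smaller differences, which did not hold for every other gene there. Krtap8-1, the first gene beyond Krtap6-2, read 181, 86.3, 90.8 and 289 CPM in unexposed controls and 24.5, 47.9, 22.6 and 87.7 CPM in unexposed knockouts, and the groups overlapped only where the lowest control met the highest knockout. Its log2 fold change was -1.83 (SE 0.80, edgeR adjusted p = 0.373) unexposed and -1.30 (SE 0.79, adjusted p = 0.397) after UVB, beside -3.10 and -3.26 for Krtap6-2. Krtap7-1 gave -1.85 (SE 0.80, adjusted p = 0.36) and -1.20 (SE 0.78, adjusted p = 0.436). At the other end the nearest tested Krtap gene, Krtap13-1, gave -0.67 (SE 0.76, adjusted p = 0.878) and -0.21 (SE 0.75, adjusted p = 0.922), beside -4.64 and -3.75 for Krtap14; after UVB its sign changed, to 0.44 and 0.15, when control library 3 or knockout library 4 of the exposed groups was left out. Krtap13, which lies between them, had 15 counts in all and was not tested. Krtap26-1, farther out, gave -3.88 unexposed (SE 1.15, adjusted p = 0.108) and -1.11 after UVB (SE 0.97, adjusted p = 0.591). Genes that are not named Krtap were also tested beyond the stretch. The tested gene nearest to Krtap14 outside the stretch, 2310034C09Rik, had 18 counts summed over the unexposed control libraries against 0 over the knockouts (fitted -5.07, no bound at such counts, adjusted p = 0.187). After UVB it read 3.10, 1.17, 0.731 and 0.417 CPM in controls and 0, 0.226, 0.267 and 0.128 CPM in knockouts, groups that did not overlap, with a log2 fold change of -3.10 (SE 1.34, adjusted p = 0.198). Another, 2310061N02Rik, had 43 counts against 1 unexposed (ratio 48.8, 95% counting interval 8.30 to 1970, adjusted p = 0.185), and 1.58 after UVB (SE 1.14, adjusted p = 0.482). Farther out, Grik1, Cldn8, Tiam1 and Sod1 did not pass in either comparison.

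Expressed per 100 CPM of the Krtap genes on other chromosomes, the neighbours Krtap8-1 and Krtap7-1 were closer to level but still lower in unexposed knockouts. Krtap8-1 stood at 17.8, 17.9, 15.9 and 18.1 in unexposed controls and 13.6, 11.8, 9.42 and 12.5 in unexposed knockouts. Krtap22-2 stood at 9.13, 9.91, 7.22 and 8.76 and at 6.21, 5.22, 3.76 and 5.18. Krtap6-1 stood at 5.92, 6.00, 4.96 and 5.69 and at 1.07, 1.998, 0.856 and 1.76. On this scale the unexposed groups were apart for each of these genes, inside and outside the stretch. Among them the ratio of the means was largest for Krtap6-1. Krtap14 differed more, with means of 4.51 in controls and 0.408 in knockouts. The means of Krtap22-2, inside the stretch, were 8.76 and 5.09, beside 17.4 and 11.8 for Krtap8-1 outside it. After UVB Krtap8-1 ran from 15.8 to 18.8 in controls and from 9.01 to 15.7 in knockouts, and Krtap6-1 from 3.47 to 6.89 and from 0.485 to 1.23. Krtap7-1 ran from 14.4 to 19.3 and from 11.3 to 15.5 after UVB, with overlap. Krtap3-1 of the chromosome 11 cluster overlapped, with 6.28 to 8.88 and 5.72 to 8.73 unexposed.

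**Figure D5:**
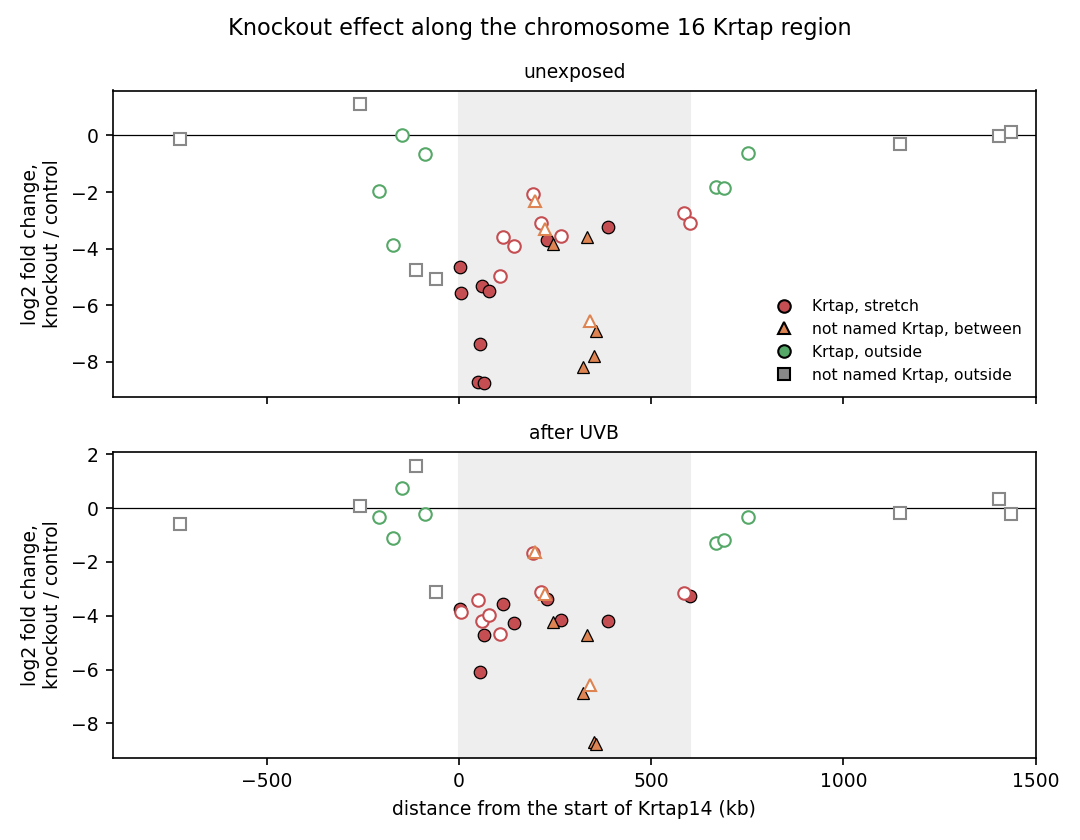
Log2 fold change of knockout against control by distance (kb) from the start of Krtap14 on chromosome 16, unexposed above and after UVB below; filled symbols have an adjusted p under 0.05 (edgeR) and the grey band is the stretch. Filled symbols occur inside the band and at none of the tested genes plotted outside it.

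Another 8 genes that are not named Krtap lie between the stretch members, and all 8 were tested. Their coding sequences resembled the Krtap genes around them, with a median of 64.4% glycine and tyrosine codons. Of these, 5 of 8 were lower unexposed and 5 of 8 after UVB, where 1.14% and 2.32% of all tested genes were lower. At each exposure 0 were higher and 3 did not pass. The genes 1110025L11Rik, Gm10061, Gm7735, Gm6358 and 1110057P08Rik were lower at both exposures. All 8 lie in an interval whose ends were set with the knockout results known, so their calls are no separate support. The unexposed count was 3, 3 and 2 without control library 1, 3 or 4 and 2, 2 and 3 without knockout library 1, 2 or 3, and DESeq2 called 7 unexposed and 6 after UVB. The most abundant of the called genes, 1110025L11Rik, read 47.5, 20.8, 19.3 and 66.0 CPM in unexposed controls and 1.37, 3.22, 1.17 and 5.06 CPM in unexposed knockouts. After UVB it read 81.7, 19.7, 62.8 and 33.4 CPM and 3.10, 4.71, 2.13 and 0.597 CPM, with no overlap at either exposure. Its log2 fold change was -3.85 (SE 0.74, edgeR adjusted p = 0.0199) and -4.22 (SE 0.75, adjusted p = 0.00779). Gm10061 gave -3.60 (adjusted p = 0.0305) and -4.73 (adjusted p = 0.00464).

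The other called genes of this kind had almost no knockout reads. Gm7735 had 115 counts in unexposed controls and 164 in exposed controls against 0 in both knockout groups, at least 9.62-fold and 19.6-fold lower. Gm6358 had 143 against 0 unexposed, at least 12.5-fold lower, and 128 against 1 after UVB (ratio 185, 95% counting interval 32.6 to 7355). For 1110057P08Rik the counts were 191 against 1 (ratio 217, interval 38.4 to 8600) and 172 against 0, at least 20.4-fold lower. Its exposed control libraries read 3.66, 0.458, 0 and 0.695 CPM, so library 1 held most of the level and the exposed groups overlapped. For Gm6358 the exposed control libraries read 2.22, 0.549, 0.365 and 0.417 CPM. These intervals and floors cover counting error only, and 67.4% of the Krtap counts above 0 were even numbers, so they may be too narrow. Of the 50-base stretches of Gm7735, 88.2% recur in another gene, mainly Gm9789, so its reads are uncertain. For 1110025L11Rik, Gm10228 and Gm10229 the shares were 38.6%, 41.7% and 31.9%, so their counts are less certain too. The median log2 fold change of the 8 genes was -5.21 unexposed and -5.66 after UVB as fitted, and -3.45 and -4.26 with the 3 genes at 0 counts put at their bound. Gm10229, the most abundant of the 8, did not pass, with -2.31 (SE 0.78, adjusted p = 0.192) and -1.61 (SE 0.76, adjusted p = 0.259).

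On the other chromosomes the most abundant members had overlapping groups with few exceptions. Krtap1-5 of the chromosome 11 cluster read 111, 59.9, 49.9 and 163 CPM in unexposed controls and 14.8, 24.9, 15.5 and 43.0 CPM in unexposed knockouts, 1 of the 4 cases without overlap; the others were Krtap9-3, Krtap4-13 and Krtap5-1. Its log2 fold change was -1.97 (SE 0.73, edgeR adjusted p = 0.246) and, after UVB, -1.69 (SE 0.72, adjusted p = 0.208). Krtap3-2 read 80.4, 70.1, 113 and 151 CPM against 51.3, 55.3, 69.9 and 144 CPM, a difference of -0.37 (SE 0.51, adjusted p = 0.918). Krtap28-10 on chromosome 1, Krtap10-4 on chromosome 10 and Krtap5-5 on chromosome 7 gave -1.12, -1.55 and -1.19 unexposed (adjusted p = 0.658, 0.329 and 0.643). After UVB the same genes gave -0.63, -0.24 and -0.68; the sign for Krtap10-4 changed to 0.11 when either control library 3 or knockout library 4 of the exposed groups was left out.

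The response to UVB was compared within each genotype. In control epidermis 0 of 17 stretch members passed in edgeR (0 at an unadjusted p under 0.05, 0 in DESeq2 and limma voom), where 35.8% of all tested genes changed and 43.6% had an unadjusted p under 0.05. Their median log2 difference, UVB against unexposed, was 0.19 and their range -1.25 to 0.61. Outside the stretch 0 of 37 passed in edgeR (1, Krtap11-1, at an unadjusted p under 0.05, 1 in DESeq2, 0 in limma voom), with a median of 0.67. In knockout epidermis 0 of 17 stretch members passed in edgeR (2, Krtap19-1 and Krtap19-4, at an unadjusted p under 0.05, 1 in DESeq2, 0 in limma voom), with a median of 0.79, where 32.2% of all tested genes changed and 39.8% had an unadjusted p under 0.05. Their range there was -0.91 to 4.05. These comparisons share libraries with the knockout comparisons by which the stretch was chosen, so they are not independent of the choice. A p that misses the threshold does not show that a level stayed the same: the SE of these differences was 0.64 to 1.28 in controls and 0.73 to 1.79 in knockouts.

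Outside the stretch 4 of 37 tested genes rose after UVB in knockouts, 0 fell and 33 did not pass, with a median of 1.22, and 18.1% of all tested genes rose. The median turned to -0.42, with 12 falling and 1 rising, in a fit with hair shaft keratin level as a covariate. In that fit 13.5% of all tested genes fell and 17.3% rose. The keratins that make up the covariate had a median of 2.09 in the same comparison, so the covariate itself differed between these groups. Krtap26-1 on chromosome 16 read 0.0163, 0.319, 0.161 and 0.0313 CPM in unexposed knockouts and 5.15, 4.56, 0.400 and 0.981 CPM in exposed ones. The groups did not overlap, as for 19.7% of all tested genes in the same direction, and the gene rose by 4.32 on the log2 scale (SE 1.16, edgeR adjusted p = 0.00923). In controls its difference was 1.54 (SE 0.99, adjusted p = 0.252), and the difference between the 2 responses was 2.78 (SE 1.46, adjusted p = 0.88). The other 3 were Krtap16-1 with 2.48 (adjusted p = 0.041), Krtap5-1 with 1.94 (adjusted p = 0.0402) and Krtap10-4 with 1.82 (adjusted p = 0.0462), all with overlapping groups. The count of 4 was 1, 4, 1 and 2 without unexposed knockout library 1, 2, 3 or 4 and 1, 1, 5 and 6 without exposed knockout library 1, 2, 3 or 4. Krtap26-1 passed in each of these 8 fits and missed the threshold in limma voom (adjusted p = 0.0923).

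The knockout difference was also compared directly between exposures. For 0 of 54 tested Krtap genes did the UVB response differ between the genotypes in edgeR, nor for any of the 17741 genes tested (0.0%; 31 in DESeq2, none of them a Krtap gene, and 0 in limma voom). Of the 54, 2 stretch members had an unadjusted p under 0.05, against 1043 or 5.88% of all tested genes. Krtap19-1 had the largest estimate, 5.30 (SE 2.16, adjusted p = 0.797), on a gene with 0 counts in the unexposed knockouts, and Krtap19-4 followed with 4.01 (SE 1.83, adjusted p = 0.833). For Krtap6-5 the estimate was 0.32 (SE 1.06) and for Krtap6-1 it was -0.02 (SE 1.20).

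Other hair genes were read beside the Krtap genes from lists drawn up for this tissue. For comparison, 1.14% of all tested genes were lower and 0.964% higher unexposed, and 2.32% and 2.36% after UVB. Of 15 tested hair shaft keratins, which form the filaments that Krtap proteins embed, 1 was lower unexposed, Krt84 (-2.002, edgeR adjusted p = 0.00411), 0 rose and 14 did not pass; the median was -1.38, and after UVB 0 of 15 passed with a median of -0.24. The 3 most abundant were Krt86 (-1.40 and -0.67), Krt34 (-1.33 and -0.67) and Krt81 (-1.34 and -0.56). The list summed to 143 to 622 CPM in unexposed controls, 63.4 to 216 CPM in unexposed knockouts, 296 to 1285 CPM in exposed controls and 69.9 to 736 CPM in exposed knockouts, overlapping at both exposures. Inner root sheath and companion layer genes, such as Tchh, Krt71 and Krt27, passed in 0 of 11 cases in both comparisons (medians -1.61 and -0.41), and so did 14 hair shaft structural and crosslinking genes (medians -1.02 and -0.13). Of 15 regulators of the shaft, with Ovol1, Gata3 and Prdm1 the most abundant, 0 passed in either comparison (medians -0.10 and -0.04).

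The level of these keratins was also entered as a covariate in a fit added after the data were seen. That level is itself an outcome: the keratins had a median of -1.38 in unexposed knockouts and of 2.09 for UVB in knockouts. The stretch was chosen with the knockout results known, so its calls in this fit are no separate support. With the covariate, 13 of 17 stretch members were lower in unexposed knockouts and 12 of 17 after UVB, with medians of -3.17 and -3.06. In that fit 0.879% and 2.36% of all tested genes were lower. The medians of the other 37 Krtap genes became -0.18 and -0.29, and 0 and 5 of them passed as lower. Among those 5 were Krtap1-5 (-1.28), Krtap8-1 (-0.92) and Krtap7-1 (-0.77). Direction was followed for up to 3 of the most abundant members of each other cluster, not for all 37. Unexposed, 5 of those followed changed direction: Krtap28-13 (0.35), Krtap3-2 (0.22), Krtap13-1 (0.60), Krtap5-5 (0.17) and Krtap5-4 (0.022). In the UVB response of knockouts in this fit, the 1 other Krtap gene that rose was Krtap26-1, and 6 of 17 stretch members fell, where 13.5% of all tested genes fell and 17.3% rose.

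Markers of other cells were read in the same libraries. Over all tested genes, 0.964% were higher and 1.14% lower in unexposed knockouts, and 2.36% and 2.32% after UVB. Follicle stem cell and outer root sheath genes passed in 0 of 11 cases unexposed and rose in 1 after UVB (Krt79, 0.99, edgeR adjusted p = 0.00987). Their summed level overlapped unexposed, at 1290 to 1953 CPM in controls and 1751 to 2880 CPM in knockouts, but not after UVB, at 3431 to 4212 CPM and 4470 to 6490 CPM. Sebaceous gland genes passed in 0 of 9 cases at both exposures. Melanocyte markers passed in 0 of 8 at both exposures, but their summed level was 41.3 to 79.0 CPM in unexposed controls and 23.2 to 39.1 CPM in unexposed knockouts, and 38.7 to 96.8 CPM and 32.4 to 48.8 CPM after UVB. Of 3 tested endothelial markers Flt1 rose at both exposures (1.28, adjusted p = 0.0176, and 1.52, adjusted p = 0.00363), and the list summed to 22.4 to 31.8 CPM in unexposed controls and 52.5 to 80.8 CPM in unexposed knockouts, and to 8.49 to 23.3 CPM and 28.8 to 49.7 CPM after UVB. Fibroblast and dermal papilla markers, 0 of 7 passing at either exposure, summed to 1.06 to 1.76 CPM in unexposed controls and 2.59 to 8.78 CPM in unexposed knockouts, and to 0 to 10.7 CPM and 2.98 to 6.99 CPM after UVB, with Sox2 at 0 counts. Skeletal muscle markers, 0 of 3 passing at either exposure, summed to 5.43 to 7.63 CPM and 4.81 to 7.85 CPM unexposed and to 2.47 to 4.27 CPM and 3.85 to 6.05 CPM after UVB, with Des at 0. Langerhans cell genes rose in 1 of 7 cases unexposed (Cd86) and 3 of 7 after UVB (H2-Aa, H2-Ab1 and Cd74), and epidermal keratinocyte genes in 1 of 10 unexposed (Krt14) and 1 of 10 after UVB (Krt5), where Lor and Krtdap fell. The part of these other cells in the Krtap differences was not tested.

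The genes whose level most resembled the summed stretch were sought among all tested genes that are not Krtap genes. The measure was the correlation of log2 CPM over the 16 libraries. These libraries differ in genotype and exposure, so r includes the knockout difference by which the stretch was chosen. Of the closest 5, 4 lie inside the stretch: Gm10228 (r = 0.99), 1110025L11Rik (r = 0.97), Gm10229 (r = 0.962) and Gm10061 (r = 0.924). Close behind came Gm11562 on chromosome 11 (r = 0.916) and Gm10013 on chromosome 7 (r = 0.911), which lie among the Krtap genes there. The likeness is thus not particular to the stretch. Crisp1 on chromosome 17, which ranked between 1110025L11Rik and Gm10229 (r = 0.964), encodes a cysteine-rich secretory protein. Crisp1 read 4.32, 3.81, 4.85 and 7.48 CPM in unexposed controls and 0.392, 0.407, 0 and 0.812 CPM in unexposed knockouts. Its groups were apart there and after UVB, with log2 fold changes of -3.70 (SE 1.05, edgeR adjusted p = 0.0937) and -2.46 (SE 0.98, adjusted p = 0.169), which did not pass.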

How the data were processed

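Epidermal RNA of 16 libraries was sequenced from NEBNext Ultra Directional libraries, per the labels' protocols. Reads were handled by the authors with FastQC, STAR, HTSeq and DESeq2, per the submitters' processing notes, in versions and on a genome build not given in the sources used here. They deposited raw counts per Ensembl gene, whole numbers with different totals (33.0 to 53.3 M). How reads shared by related genes were counted is not given, so reads of near-identical Krtap genes are uncertain.

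Symbols and positions came from GENCODE M21 (GRCm38), which named 49326 of 49585 genes. Counts were fitted with edgeR 4.0.16 (R 4.3.3): filterByExpr kept 17741 genes, TMM scaled the libraries, and a robust quasi-likelihood model with 1 mean per group was fitted to all 16. F tests were two-sided, adjusted by Benjamini-Hochberg over tested genes, with a threshold of 0.05. CPM were computed from the counts and TMM factors. DESeq2 1.42.0 and limma 3.58.1 (voom) were alternatives, as were other scalings, filters and the omission of each library. The fits were tested on simulated data. Replicate numbers follow the order of deposit and pair nothing.

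Members, lists, tests and naming rules were chosen with earlier results of these data known. Named with values in every library were the 6 stretch members and up to 3 members of each other cluster with the highest mean CPM; any tested Krtap gene could be named with its fold change, as could up to 3 members of a list by mean CPM, any gene behind a count of 5 or fewer, and the 5 genes most like the stretch (log2 of CPM + 0.5). Per-library values of Krtap14, Krtap19-1, Krtap19-2, Krtap19-4, Krtap26-1, the genes between, 2310034C09Rik and 2310061N02Rik were added after they were seen. So were the names of Gm11562 and Gm10013, which came next in likeness. The lists were hair shaft keratins, inner root sheath and companion layer, hair shaft regulators, hair shaft structural and crosslinking genes, follicle stem cell and outer root sheath, sebaceous gland, melanocytes, dermal fibroblasts and papilla, epidermal keratinocytes, Langerhans cells, skeletal muscle and endothelium. Upstream sequences are from RefSeq (GRCm38.p6); 51 Krtap genes matched. Tables used Python 3.11.15.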

Additional observations from a re-analysis of the deposited data

How the results depend on the processing

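Across the alternatives run, all 17 stretch estimates were below 0 in the unexposed knockout comparison, while the numbers of calls moved; the cause was not tested. With DESeq2, calls over all genes became 742 unexposed and 1493 after UVB (373 and 830 in edgeR), stretch calls 16 and 15, other Krtap calls 1 unexposed, 1 for UVB in controls, and stretch calls 1 for UVB in knockouts; the difference of UVB responses gave 31. With limma voom 14 stretch genes were called unexposed, and 0 other Krtap genes for UVB in knockouts. Without robust estimation the stretch counts were 14 and 15, and 1 other Krtap gene was called for UVB in controls. With no filter on low counts, where more genes are tested, they were 4 and 5, other Krtap calls for UVB in knockouts fell to 2, and the difference of UVB responses gave 2. Upper-quartile scaling gave 2 other Krtap calls for UVB in knockouts; unexposed, it called 180 genes higher and 136 lower, against 171 and 202. Fits of only the groups compared gave 1 other Krtap call unexposed, 1 for UVB in controls and 1 for UVB in knockouts. With the hair shaft keratin covariate, added after the data were seen, other Krtap calls were 5 for knockout after UVB (all lower), and for UVB 3 in controls (2 lower, 1 higher) and 13 in knockouts (12 lower, 1 higher, against 4 higher without the covariate); stretch calls for UVB were 1 and 6 and calls among the genes between 1 and 4, all lower, and the difference of responses gave 1. In this fit 17.8% and 13.5% of all tested genes were lower for UVB in controls and knockouts, and 17.4% and 17.3% were higher. Directions were followed for the stretch, the genes between and up to 3 members of each other cluster. Among these, the covariate fit turned the unexposed estimates of Krtap28-13 (0.35), Krtap3-2 (0.22), Krtap13-1 (0.60), Krtap5-5 (0.17) and Krtap5-4 (0.022). After UVB it turned those of Krtap10-4 (0.11) and Krtap13-1 (0.26). Leaving out 1 library gave 134 to 435 calls over all genes unexposed, 419 to 1356 after UVB and 0 to 2 for the difference of responses; 2 to 11 and 3 to 12 stretch calls; 2 to 5 and 5 to 6 calls among the genes between; and, for UVB in knockouts, 0 to 1 stretch calls and 1 to 6 other Krtap calls. Krtap5-2 turned to -0.12, -0.13 and -0.18 unexposed without control library 2, control library 3 or knockout library 4, in a range of -0.18 to 0.70. After UVB Krtap10-4 turned to 0.11 without control library 3 or knockout library 4 (range -0.67 to 0.11), and Krtap13-1 to 0.44 and 0.15 (range -0.58 to 0.44). With members of little shared sequence, a choice made after the data were seen, the mean share of the stretch was 13.6% in unexposed and 12.2% in exposed knockouts; over all Krtap genes, leaving out 1 library gave means of 9.29% to 10.4% and 7.14% to 9.04%. No paired analysis was possible because replicate numbers were given in order of deposit and pair no samples. Krtap19-1 and Krtap19-4, with 0 and 1 count in unexposed knockouts, show the limit that depth sets on the size of a difference.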
